A study of Homo sapiens with 18 samples.

Results

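The ubiquitin-specific proteases (USPs) other than USP13 were followed in 786-O cells, an established human clear-cell renal carcinoma line, after hairpin knockdown of USP13 or of the transcription factor ZHX2. The members were all protein-coding genes whose symbol is USP followed by a number (with or without X, L or Y), except USP13, which was the knockdown target, USP5, which is its closest paralog, and any gene on chromosome Y. The rule used names only and no measured value. It gave 48 members of the 27086 genes in the files. They lay on 19 chromosomes, with 5 of them on the X chromosome, and they had 154 transcripts in the files.

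USPs form the largest family of deubiquitinating enzymes in human cells. They are cysteine proteases that share a fold of fingers, palm and thumb, and cut ubiquitin from substrate proteins or trim ubiquitin chains, which opposes the work of ubiquitin ligases. Members differ in where they sit and in what they bind: some act on histones, some on the proteasome, on endosomes, on mitochondria or on DNA repair proteins. In clear-cell renal carcinoma the ubiquitin system is of interest because the tumour suppressor VHL is the substrate receptor of a ubiquitin ligase, and 786-O cells lack functional VHL.

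In the USP13 experiment, cells carried the hairpin sh50 or sh52, both directed against USP13, or a control hairpin (shCtrl). In the ZHX2 experiment, cells carried the hairpin sh43 or sh45, assigned to ZHX2 by the sample titles, or a control hairpin with libraries of its own. Each of the 6 groups had 3 libraries of total RNA, 18 in all, from the same cell line, and no genotype or drug other than the hairpin is given for a library. The treatment protocol speaks of doxycycline-inducible vectors for USP13 hairpins but not of which libraries used them, and it lists hairpins 43 and 45 under USP13. The labels do not say whether replicates came from separate cultures. A p-value here thus reflects the spread among libraries within their groups, which may be of technical origin alone. That spread was estimated from all groups of a fit together, so a library outside a contrast can move its p-value.

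Targets were checked first. USP13 had 16.8, 17.1 and 20.5 CPM with sh50 and 14.8, 18.1 and 17.9 CPM with sh52, against 36.9, 34.7 and 31.8 CPM in the USP13 shCtrl libraries. USP13 fell under both hairpins, with a log2 change of -0.92 under sh50 (edgeR adjusted p = 6.38e-07) and of -1.03 under sh52 (edgeR adjusted p = 3.3e-07). ZHX2 had 38.6, 43.4 and 38.6 CPM with sh43 and 90.8, 82.1 and 79.6 CPM with sh45, against 340.3, 344 and 344 CPM in the ZHX2 shCtrl libraries. ZHX2 fell under both of its hairpins, by a log2 change of -3.09 under sh43 (edgeR adjusted p = 4.3e-24) and of -2.03 under sh45 (edgeR adjusted p = 1.11e-20), which fits the titles. Here and below, CPM is a gene's estimated count scaled to a common library total, with totals adjusted by trimmed mean of M values (TMM), and a gene is said to rise or fall when edgeR's quasi-likelihood F-test gave an adjusted p under 0.05 over all genes tested, which is named a call. USP5 had 85.8, 85.8 and 85.9 CPM with sh50 and 77.3, 82.8 and 79.9 CPM with sh52, against 78.3, 82.7 and 80.5 CPM in the USP13 shCtrl libraries, and passed in neither contrast.

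Totals per library were 11192561 to 16511290 estimated counts, and members together held 0.209% to 0.256% of them. All 8 renal carcinoma line markers were detected, at a summed 3663 to 5333 TPM, the abundance per transcript length, whereas the 4 endothelial markers summed to at most 0.13 TPM and the 6 fibroblast markers to at most 1.71 TPM. Of the 6 leukocyte markers, which summed to 18.5 to 60.0 TPM, CD68 supplied nearly all and CD3E was at 0 in every library. The leukocyte sum was 19.0 to 25.4 TPM under sh50 and 38.6 to 41.2 TPM under sh52, against 30.9 to 34.0 TPM in the USP13 shCtrl libraries, and 18.5 to 19.6 TPM under sh43 and 53.9 to 60.0 TPM under sh45, against 41.0 to 47.5 TPM in the ZHX2 shCtrl libraries. The renal sum was 3663 to 3838 TPM under sh50 and 4297 to 4397 TPM under sh52, against 5154 to 5333 TPM in the USP13 shCtrl libraries, and 3996 to 4151 TPM under sh43 and 4834 to 4900 TPM under sh45, against 5013 to 5160 TPM in the ZHX2 shCtrl libraries. It was thus below the controls under all 4 hairpins, whereas the leukocyte sum was lower under sh50 and sh43 and higher under sh52 and sh45. Single renal markers did not all move with their sum. Of the 8, 1 rose and 5 fell under sh50 (10.2% and 11.3% of all genes), and 0 rose and 4 fell under sh52 (5.45% and 6.56%). Under sh43, 4 rose and 4 fell (33.5% and 35.2% of all genes), and under sh45, 3 rose and 4 fell (25.3% and 27.3%). Replicate 1 of sh52 stood apart from the other libraries of its experiment on the second principal component and had counts for 15490 genes, against at least 15867 in every other library. The share of counts from mitochondrial rRNA moved with the groups. It was 4.25 ± 0.161% under sh50 and 3.69 ± 0.136% under sh52, against 2.62 ± 0.0781% in the USP13 shCtrl libraries, and 1.54 ± 0.031% under sh43 and 3.09 ± 0.26% under sh45, against 1.25 ± 0.0724% in the ZHX2 shCtrl libraries (SD, n = 3 each). The part of these shifts in the changes of members was not tested. As these are bulk libraries, fewer cells of a kind and less RNA per cell cannot be told apart.

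The sequences of the USP13 hairpins bear on how a member could be touched directly, so their targets were compared with the GENCODE 29 transcripts of all 48 members. The capitals mark the bases that pair with the seed of the guide strand (guide bases 2 to 8).
sh50 target: cgcctgatgaaccAATTGATa
sh52 target: ccggtgaaatctgAACTCATt
No member held a site close to either target. Over the 48 members the smallest number of mismatches in the 21 bases was 4 to 10 for sh50 and 6 to 10 for sh52. Only USP24 had a site with 4 mismatches to sh50, and USP7 and USP48 followed with 5. For sh52, 7 members (USP1, USP8, USP28, USP31, USP45, USP47 and USP48) had a nearest site with 6 mismatches, of which that of USP1 is shown as an example. The sites of USP24 and USP48, that of USP1 and those of USP46, the member that fell under both hairpins, are given next with mismatched bases in capitals.
USP24, sh50, 4 mismatches: cAcctgatgaaGAaattgCta
USP48, sh50, 5 mismatches: AgGctgatgaaccaattgCAG
USP1, sh52, 6 mismatches: TcTgtgaaaActgCCAtcatt
USP46, sh50, 7 mismatches: cAcctCCtgCaGcaGGtgata
USP46, sh52, 7 mismatches: AAggtgaGTtTtgaTctcTtt
Neither USP24 nor USP48 passed the test under sh50, with log2 changes of 0.03 and -0.04 (edgeR adjusted p = 0.839 and 0.687). USP1 had a log2 change of -0.12 under sh52 (edgeR adjusted p = 0.395).

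A match to the 7 bases that pair with a guide's seed is short and common. For sh50 (AATTGAT) it was present in the transcripts of 18 of 48 members (37.5%), beside 19.9% of 19669 protein-coding genes, and for sh52 (AACTCAT) in 16 of 48 members (33.3%), beside 20.1%. Genes with a match had longer transcripts: the median longest transcript of tested members was 5516 bases with an sh50 match and 4921 bases without. Over all tested protein-coding genes these medians were 5062 and 3055 bases, so members had the longer transcripts with and without a match. Of the 18 tested members with an sh50 match, 3 fell and none rose under sh50 (USP25, USP32 and USP9X), where 11.3% of all genes tested fell and 10.2% rose, and their median log2 change was -0.09. Of the 25 without, 3 fell and 3 rose, with a median of -0.01. Under sh52, 1 of 15 members with its match fell (USP46), 1 rose (USP40) and the median was 0.06, whereas 3 of 28 without fell, 1 rose and the median was -0.04, beside falls in 6.56% and rises in 5.45% of all genes tested. Of 2870 tested protein-coding genes with an sh50 match, 408 fell (14.2%) and 211 rose under sh50, and 11.5% of those without a match fell. For sh52, 7.52% of such genes with a match fell and 6.85% without. Among these genes the medians were -0.04 with and 0.01 without a match for sh50, and -0.01 and 0.00 for sh52. The sequences of sh43 and sh45 were not used here.

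Members covered a wide range of levels. In TPM, which is per transcript length and so can be set between genes, USP22 was highest, at a mean of 79.9 ± 17.1 TPM over the 18 libraries (SD), with 61.8 TPM in the lowest library and 119 TPM in the highest. USP22 removes ubiquitin from histone H2B as part of the SAGA coactivator. Next came USP10, a partner of the stress granule protein G3BP1, at 69.7 ± 8.44 TPM and USP39, a spliceosome protein without protease activity, at 48.0 ± 9.10 TPM. The proteasome-bound USP14 followed at 40.6 ± 5.78 TPM, and USP7, a regulator of p53 and of its ligase MDM2, at 37.1 ± 5.31 TPM. These SDs span both experiments and all hairpins. The levels of USP14, USP7, USP48 (36.8 ± 5.84 TPM) and USP33 (36.4 ± 9.68 TPM) differed from one to the next by less than their SD, and those of USP22 and USP10 differed by less than the SD of USP22. At the low end, USP2 averaged 0.617 TPM and USP6, a gene of hominoids that arose by fusion of USP32 with TBC1D3, averaged 0.188 TPM. USP26 and USP29, which are known from the testis, were at 0 in all 18 libraries.

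**Figure D1:**
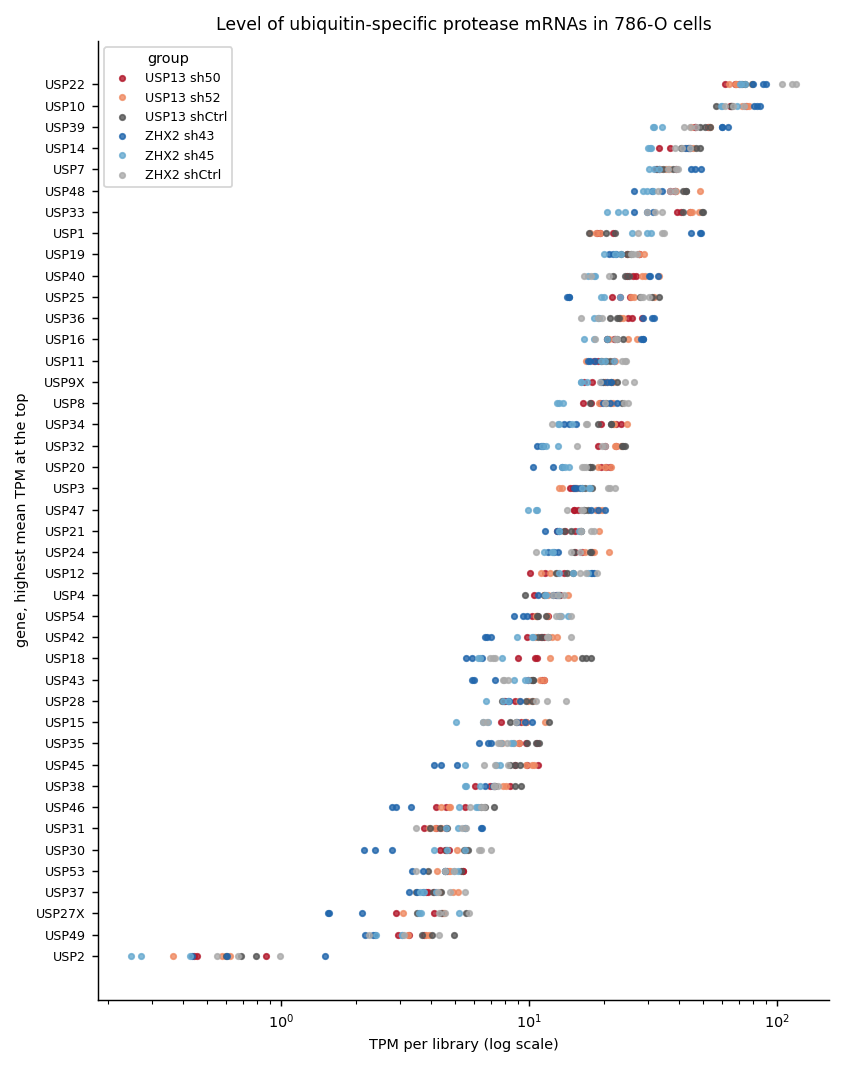
TPM of each library (x axis, log scale) for the 42 members tested in both experiments (y axis), ordered by mean TPM and coloured by group. USP22, USP10 and USP39 lead, and USP2 is the lowest of the members drawn.

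A filter on low counts left 43 members in the test of the USP13 experiment and 42 in that of the ZHX2 experiment. USP26, USP29, USP44, USP50 and USP51 were filtered out in both, and USP6 in the ZHX2 experiment as well.

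Few members passed under the USP13 hairpins, and most of these under one hairpin. Under sh50, 9 of 43 tested members passed (20.9%), against 21.5% of all genes tested. Of those 9, 3 rose (USP10, USP20, USP36) and 6 fell (USP9X, USP14, USP18, USP25, USP32, USP46), while 10.2% of all genes rose and 11.3% fell. Under sh52, 6 of 43 passed (14%), against 12% of all genes, with 2 higher (USP10, USP40) and 4 lower (USP3, USP22, USP35, USP46), while 5.45% of all genes were higher and 6.56% lower. Only USP46, which fell, and USP10, which rose, passed under both hairpins in the same direction, which is 4.65% of members, against 7.42% of all genes (3.26% higher and 4.16% lower). None passed in opposite directions, against 0.146% of all genes. All these shares lie near or below those of all genes, so the counts do not set members apart. The median log2 change of members was -0.03 under sh50 and -0.02 under sh52, and 0.00 over all genes tested in both contrasts. Both hairpins were compared with the same shCtrl libraries.

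The count under sh50 was sensitive to single libraries. It was 4 without sh50 replicate 2, shCtrl replicate 1 or shCtrl replicate 2, and 5 without sh50 replicate 1 or sh52 replicate 3. With upper-quartile factors the split of members under sh50 was 3 higher and 3 lower. Under sh52 the count was 2 without sh52 replicate 3. The count under both hairpins was 1 without sh50 replicate 1, 2 or 3, sh52 replicate 3, or shCtrl replicate 1 or 2. It was 4 without sh52 replicate 1, the library that stood apart, when USP40 joined those that rose and USP25 those that fell.

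**Figure D2:**
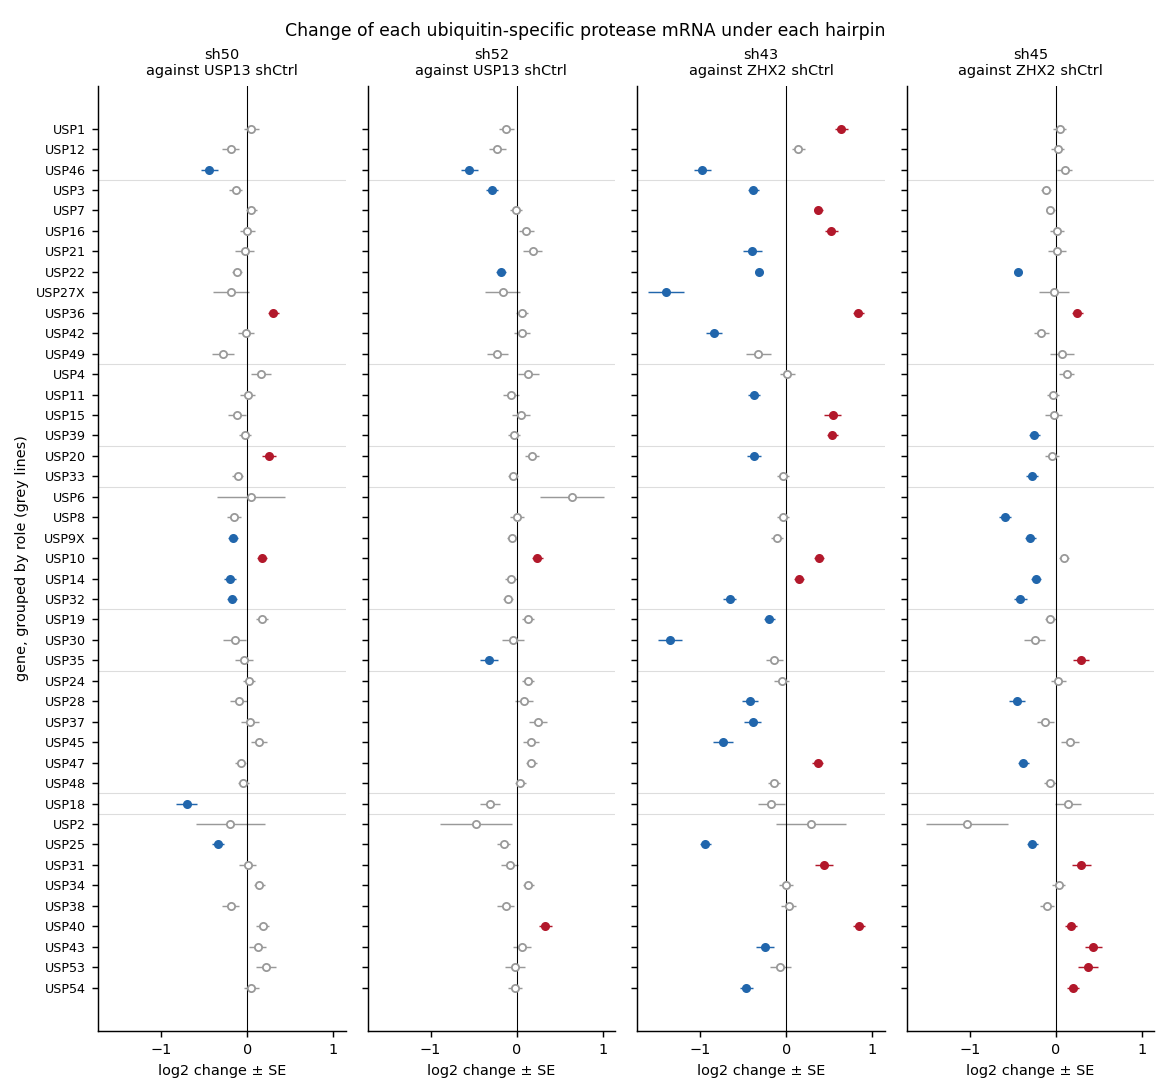
Log2 change ± SE (x axis) of each tested member (y axis, grouped by role between grey lines) under the 4 hairpins, each against its own shCtrl. Filled red points rose and filled blue points fell (edgeR adjusted p under 0.05), and open points did not pass: 9 and 6 members passed under sh50 and sh52, and 28 and 17 under sh43 and sh45.

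USP1, USP12 and USP46 are activated by the same WD-repeat protein, UAF1 (gene WDR48), and USP12 and USP46 also bind WDR20. USP46 had 21.5, 23.3 and 26.3 CPM with sh50 and 20.3, 23.3 and 22.5 CPM with sh52, against 33.7, 31.6 and 31.5 CPM in the USP13 shCtrl libraries. All 6 hairpin libraries lay below all 3 controls. USP46 fell under sh50 (log2 change -0.44 ± 0.10 SE, edgeR adjusted p = 0.00168) and under sh52 (log2 change -0.55 ± 0.10 SE, edgeR adjusted p = 0.000414). It kept both calls without any single library and in every other setting tried. USP12 had 27.9, 32 and 36.1 CPM with sh50 and 28.1, 34.3 and 31.7 CPM with sh52, against 38.5, 36.8 and 34.6 CPM in the USP13 shCtrl libraries. USP12 was lower in every sh52 library than in every control, while sh50 and control libraries overlapped, and it passed in neither contrast (log2 changes -0.19 and -0.23, edgeR adjusted p = 0.184 and 0.141). USP1 had 42.5, 41 and 44.9 CPM with sh50 and 38.5, 37.1 and 38.5 CPM with sh52, against 41.2, 45.4 and 37.2 CPM in the USP13 shCtrl libraries. USP1, which removes ubiquitin from the repair proteins FANCD2 and PCNA, did not pass (log2 changes 0.05 and -0.12, edgeR adjusted p = 0.732 and 0.395). Of the cofactors, WDR48 had log2 changes of 0.08 and 0.02 and WDR20 of -0.16 and 0.02, and neither passed (edgeR adjusted p = 0.603, 0.936, 0.361 and 0.942).

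Among members that act at endosomes, the proteasome or stress granules, USP10 rose under both USP13 hairpins. USP10 had 119, 118 and 129 CPM with sh50 and 125, 126 and 132 CPM with sh52, against 112, 113 and 101 CPM in the USP13 shCtrl libraries. All 6 hairpin libraries lay above the 3 controls. The rise was small under sh50 (log2 change 0.17 ± 0.06 SE, edgeR adjusted p = 0.0487) and under sh52 (log2 change 0.24 ± 0.06 SE, edgeR adjusted p = 0.0105). The sh50 call ended without sh50 replicate 1, 2 or 3, sh52 replicate 3 or shCtrl replicate 1, 2 or 3 (edgeR adjusted p of 0.054 to 0.204). It also ended with a replicate block, which adds the replicate number to the model (edgeR adjusted p = 0.077). The sh52 call ended without sh52 replicate 3 or shCtrl replicate 3 (edgeR adjusted p of 0.0544 to 0.0567). USP14 had 83.5, 92.3 and 105 CPM with sh50 and 105, 102 and 102 CPM with sh52, against 113, 111 and 99.9 CPM in the USP13 shCtrl libraries. Both hairpins overlapped the controls, and USP14 fell under sh50 (log2 change -0.20 ± 0.07 SE, edgeR adjusted p = 0.0443) while it did not pass under sh52 (log2 change -0.07, edgeR adjusted p = 0.614). That sh50 call ended without sh50 replicate 1 or 2, sh52 replicate 2 or 3 or shCtrl replicate 1 or 2 (edgeR adjusted p of 0.0516 to 0.291). It ended also with upper-quartile factors, the replicate block, effective-length offsets or DESeq2 (adjusted p of 0.0503 to 0.0608). The log2 change of USP14 was -0.13 in the absence of sh50 replicate 1. USP32 had 83.9, 88.8 and 93.9 CPM with sh50 and 94.8, 93.3 and 92.8 CPM with sh52, against 99.7, 98.5 and 103 CPM in the USP13 shCtrl libraries. Every hairpin library of USP32, an enzyme of late endosomes and the Golgi, lay below every control. It fell under sh50 (log2 change -0.17 ± 0.06 SE, edgeR adjusted p = 0.0412) but did not pass under sh52 (log2 change -0.10, edgeR adjusted p = 0.312). For USP32 the sh50 call ended without sh50 replicate 1 or 2, sh52 replicate 2 or 3 or shCtrl replicate 1, 2 or 3 (edgeR adjusted p of 0.0511 to 0.217). It ended also with upper-quartile factors, with no filter on low counts or with the replicate block (adjusted p of 0.0552 to 0.0673). USP9X, an X-linked enzyme with many membrane and signalling substrates, fell under sh50 (log2 change -0.17 ± 0.06 SE, edgeR adjusted p = 0.0486). Its call ended without sh50 replicate 1 or 2, sh52 replicate 2 or 3 or shCtrl replicate 1 or 2 (edgeR adjusted p of 0.0573 to 0.304). It ended also with upper-quartile factors, no filter on low counts, the replicate block or effective-length offsets (adjusted p of 0.0546 to 0.0677). The log2 change of USP9X was -0.11 in the absence of sh50 replicate 2. USP8 had 60.6, 56.1 and 62.7 CPM with sh50 and 66.5, 62.5 and 70.0 CPM with sh52, against 74.8, 65.9 and 58.5 CPM in the USP13 shCtrl libraries. USP8, which works with the ESCRT machinery on endosomes, overlapped its controls under both hairpins and did not pass (edgeR adjusted p = 0.196 and 0.995).

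USP32 has a pseudogene copy, USP32P2, which averaged 37.2 ± 3.18 CPM under sh50 and 35.4 ± 5.09 CPM under sh52, against 24.8 ± 2.29 CPM in the USP13 shCtrl libraries (SD, n = 3 each). Its mean was higher with both hairpins while USP32 was lower, and how reads were divided between these copies was not tested, so the USP32 values are uncertain to that extent.

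Chromatin and nucleolar members gave 1 rise under sh50 and 2 falls under sh52 among 9 tested, where 10.2% of all genes rose under sh50 and 6.56% fell under sh52. USP36 had 96.7, 91.7 and 99.4 CPM with sh50 and 78.1, 82.1 and 83.1 CPM with sh52, against 76.9, 73.5 and 82.9 CPM in the USP13 shCtrl libraries. USP36, a nucleolar enzyme of ribosome production, was higher in every sh50 library than in every control, while sh52 overlapped the controls. It rose under sh50 (log2 change 0.30 ± 0.06 SE, edgeR adjusted p = 0.00112), did not pass under sh52 (log2 change 0.06, edgeR adjusted p = 0.598), and was lower under sh52 than under sh50 (log2 change -0.24 ± 0.06 SE, edgeR adjusted p = 0.0172), a difference that did not pass without sh50 replicate 1 or 3 (edgeR adjusted p of 0.0605 to 0.0661). USP22 had 201, 217 and 215 CPM with sh50 and 188, 212 and 208 CPM with sh52, against 236, 227 and 226 CPM in the USP13 shCtrl libraries. All hairpin libraries of USP22 lay below the controls. It fell under sh52 (log2 change -0.18 ± 0.06 SE, edgeR adjusted p = 0.0356) and did not pass under sh50 (log2 change -0.12, edgeR adjusted p = 0.132). That call ended without sh52 replicate 1 or 3 or shCtrl replicate 1 or 2 (edgeR adjusted p of 0.0606 to 0.148). It ended also with the replicate block (edgeR adjusted p = 0.0502) and with only the libraries compared (edgeR adjusted p = 0.0527). USP3, which removes ubiquitin from histone H2A, fell under sh52 (log2 change -0.29 ± 0.07 SE, edgeR adjusted p = 0.0118), and the call ended without sh52 replicate 2 or 3 or shCtrl replicate 1 (edgeR adjusted p of 0.0553 to 0.0618). USP42 had 36.6, 31 and 33.5 CPM with sh50 and 35.8, 31.9 and 38.5 CPM with sh52, against 34.8, 32.3 and 34.7 CPM in the USP13 shCtrl libraries. USP42 overlapped its controls under both hairpins and did not pass (edgeR adjusted p = 0.951 and 0.711). USP27X had 7.07, 4.56 and 6.19 CPM with sh50 and 4.45, 6.78 and 6.75 CPM with sh52, against 8.10, 6.58 and 5.42 CPM in the USP13 shCtrl libraries. USP27X, which shares SAGA adaptor proteins with USP22, also overlapped and did not pass (edgeR adjusted p = 0.583 and 0.668).

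USP20 and USP33 are paralogs first described as partners of VHL, the protein that 786-O cells lack in functional form. USP20 had 58, 55.5 and 50.3 CPM with sh50 and 46.8, 55.8 and 51.8 CPM with sh52, against 45.2, 44.9 and 46.5 CPM in the USP13 shCtrl libraries. All hairpin libraries lay above the controls. USP20 rose under sh50 (log2 change 0.26 ± 0.08 SE, edgeR adjusted p = 0.0218), but the call ended without sh50 replicate 1 or 2 or shCtrl replicate 1 or 2 (edgeR adjusted p of 0.0688 to 0.105), and it did not pass under sh52 (log2 change 0.18, edgeR adjusted p = 0.168). USP33 did not pass under either hairpin (log2 changes -0.11 and -0.04, edgeR adjusted p = 0.243 and 0.711).

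USP18 takes the ubiquitin-like protein ISG15 off its substrates and restrains interferon receptor signalling. USP18 had 10.3, 12 and 11.7 CPM with sh50 and 15.8, 15.7 and 13.1 CPM with sh52, against 17.3, 19.2 and 18.8 CPM in the USP13 shCtrl libraries. The 3 groups did not overlap, with sh50 lowest and the controls highest. USP18 fell under sh50 (log2 change -0.70 ± 0.12 SE, edgeR adjusted p = 0.000129), the largest change of any tested member under that hairpin, and did not pass under sh52 (log2 change -0.31 ± 0.12 SE, edgeR adjusted p = 0.0865). It was higher under sh52 than under sh50 (log2 change 0.39 ± 0.12 SE, edgeR adjusted p = 0.0464). That call was lost without any one of 8 of the 9 libraries, all but sh52 replicate 3 (edgeR adjusted p of 0.0524 to 0.179). It was also lost with the replicate block (adjusted p = 0.0597), with DESeq2 (adjusted p = 0.0583) and with only the libraries compared (adjusted p = 0.077). The genes of ISG15 and its conjugation were lower beside it under sh50: 5 of 5 passed (ISG15, its activating enzyme UBA7, the conjugating enzyme UBE2L6 and the ligases HERC5 and TRIM25), with a median log2 change of -0.37, where 11.3% of all genes fell. Under sh52, 1 of 5 fell (TRIM25), beside 6.56% of all genes, and the median was -0.13. This list was chosen with earlier results of these data known, and it was not tested as a set.

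Of the remaining members, USP25 and USP40 changed under one USP13 hairpin each. USP25 had 70.1, 74.8 and 78.1 CPM with sh50 and 93.7, 79.9 and 80.7 CPM with sh52, against 99.5, 95.1 and 88 CPM in the USP13 shCtrl libraries. USP25, a paralog of USP28 with a part in innate immune signalling, was lower in all sh50 libraries than in the controls, and sh52 replicate 1 overlapped them. It fell under sh50 (log2 change -0.34 ± 0.07 SE, edgeR adjusted p = 0.00104) and did not pass under sh52 (log2 change -0.15 ± 0.07 SE, edgeR adjusted p = 0.177), where the edgeR adjusted p was 0.0307 without sh52 replicate 1. USP40 had 87.2, 94.2 and 86.5 CPM with sh50 and 107, 94.9 and 95.8 CPM with sh52, against 70.4, 80.0 and 86 CPM in the USP13 shCtrl libraries. USP40 was above all controls in every hairpin library. It rose under sh52 (log2 change 0.33 ± 0.07 SE, edgeR adjusted p = 0.00291) and did not pass under sh50 (log2 change 0.18 ± 0.07 SE, edgeR adjusted p = 0.0792). USP35 had 24.1, 28.2 and 24.2 CPM with sh50 and 20.9, 22.9 and 19.2 CPM with sh52, against 23.9, 27.3 and 27.3 CPM in the USP13 shCtrl libraries. USP35 was below all controls in every sh52 library and overlapped them under sh50. It fell under sh52 (log2 change -0.32 ± 0.10 SE, edgeR adjusted p = 0.0436), but that call ended without sh50 replicate 1, sh52 replicate 1 or 3 or shCtrl replicate 2 or 3 (edgeR adjusted p of 0.056 to 0.172) and also with upper-quartile factors, with effective-length offsets or with only the libraries compared (adjusted p of 0.0507 to 0.0582).

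**Figure D3:**
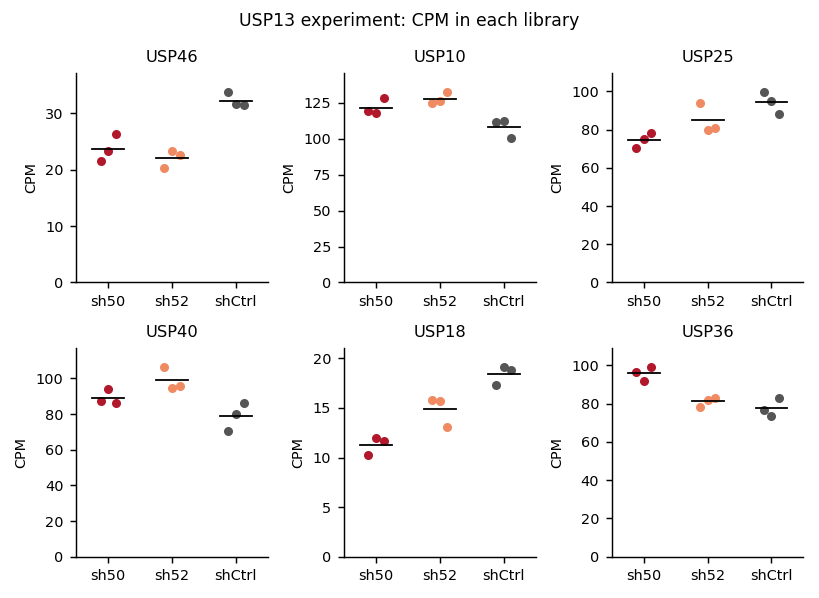
CPM (y axis, from 0) of 6 members in each library of the USP13 experiment, with the group mean as a bar. USP46 lies below and USP10 above the shCtrl libraries in all 6 hairpin libraries, and USP18 falls into 3 separate groups.

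The other members given by library did not pass under either USP13 hairpin. USP28 had 24.7, 22.2 and 21.1 CPM with sh50 and 26.3, 24.4 and 26.1 CPM with sh52, against 25.3, 25.7 and 21.4 CPM in the USP13 shCtrl libraries. USP28, which stabilises MYC and takes part in the p53 response, overlapped its controls under both hairpins. USP30 had 10.5, 11.3 and 10.3 CPM with sh50 and 12.1, 10.7 and 11.6 CPM with sh52, against 12.4, 12.3 and 10.7 CPM in the USP13 shCtrl libraries. USP30, which sits on the outer mitochondrial membrane and opposes the removal of damaged mitochondria, overlapped as well. USP19 had 73.3, 81 and 77.6 CPM with sh50 and 77.6, 70.5 and 76.5 CPM with sh52, against 69.8, 65 and 71 CPM in the USP13 shCtrl libraries. USP19, which has a form anchored in the endoplasmic reticulum, was above all controls under sh50 and overlapped them under sh52 (log2 changes 0.18 and 0.13, edgeR adjusted p = 0.0673 and 0.242). USP31 had 25.8, 28.6 and 30.0 CPM with sh50 and 25.9, 25.7 and 28.2 CPM with sh52, against 25, 30.1 and 29.1 CPM in the USP13 shCtrl libraries. USP31 overlapped its controls. USP37 had 19.9, 19.4 and 19.8 CPM with sh50 and 22.8, 21.2 and 24.6 CPM with sh52, against 20.7, 19.6 and 17.3 CPM in the USP13 shCtrl libraries. USP37, which stabilises cyclin A, was above all controls under sh52 but did not pass (log2 change 0.25, edgeR adjusted p = 0.122). USP39 had 57.4, 56.7 and 60.9 CPM with sh50 and 60.0, 52.9 and 61.5 CPM with sh52, against 60.8, 59.2 and 58.1 CPM in the USP13 shCtrl libraries. USP39 overlapped its controls. USP43 had 28.5, 29.1 and 23.7 CPM with sh50 and 25.6, 24.6 and 27.4 CPM with sh52, against 24.3, 24.6 and 25.6 CPM in the USP13 shCtrl libraries. USP43 overlapped too.

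USP45 had 28.7, 30.7 and 31.5 CPM with sh50 and 33.4, 30.5 and 28.8 CPM with sh52, against 29, 27.2 and 26.8 CPM in the USP13 shCtrl libraries. USP45, which acts on the repair nuclease subunit ERCC1, overlapped its controls under both hairpins. USP47 had 76.6, 78.7 and 72.1 CPM with sh50 and 87.5, 89.3 and 92.5 CPM with sh52, against 80.1, 78.6 and 80.9 CPM in the USP13 shCtrl libraries. USP47, a deubiquitinase of the base excision repair polymerase beta, was above all controls under sh52 and did not pass there (log2 change 0.17, edgeR adjusted p = 0.0783). It was higher under sh52 than under sh50 (log2 change 0.24 ± 0.06 SE, edgeR adjusted p = 0.0125), a difference that did not pass without sh50 replicate 3 or sh52 replicate 3 (edgeR adjusted p of 0.0593 to 0.0602). USP54 had 39.2, 36.9 and 40.6 CPM with sh50 and 35.1, 36 and 39.8 CPM with sh52, against 38.1, 36.4 and 38.3 CPM in the USP13 shCtrl libraries. USP54 overlapped its controls under both hairpins.

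The USP13 hairpins differed from each other in 3 of 43 members (6.98%), against 10.2% of all genes tested. USP18 and USP47 were higher and USP36 lower under sh52 than under sh50, while 5.48% of all genes were higher and 4.74% lower. No single library could be left out with all 3 calls kept. The count was 1 without sh50 replicate 1 (USP47) and 1 without sh50 replicate 3, where USP14 alone passed. It was 2 without any one of the others, with USP18 and USP36 called without sh52 replicate 3 and USP36 and USP47 called in the other 6 fits.

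ZHX2 knockdown went with wider changes, in members as in all genes. Under sh43, 28 of 42 tested members passed (66.7%), against 68.8% of all genes tested, with 11 higher and 17 lower beside 33.5% and 35.2% of all genes. Under sh45, 17 of 42 passed (40.5%), against 52.5% of all genes, with 7 higher and 10 lower beside 25.3% and 27.3% of all genes. In the same direction under both hairpins, 3 members rose (USP31, USP36, USP40) and 4 fell (USP22, USP25, USP28, USP32), together 16.7% of members against 30% of all genes (14.1% higher and 15.9% lower). A further 5 members passed in opposite directions, against 9.32% of all genes. The median log2 change of members was -0.13 under sh43 and -0.03 under sh45, beside -0.02 and -0.01 over all genes. Members' median absolute log2 change was 0.37 under sh43 and 0.15 under sh45, beside 0.42 and 0.27 over all genes. Both hairpins share the ZHX2 shCtrl libraries.

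Of the chromatin and nucleolar members, USP22 fell under both ZHX2 hairpins. USP22 had 271, 271 and 252 CPM with sh43 and 243, 243 and 241 CPM with sh45, against 334, 313 and 341 CPM in the ZHX2 shCtrl libraries. All 6 hairpin libraries lay below the controls. The fall was seen under sh43 (log2 change -0.31 ± 0.05 SE, edgeR adjusted p = 1.11e-06) and under sh45 (log2 change -0.44 ± 0.05 SE, edgeR adjusted p = 9.21e-09). USP36 had 109, 111 and 103 CPM with sh43 and 70.7, 73.8 and 70.8 CPM with sh45, against 62.5, 55.1 and 63.8 CPM in the ZHX2 shCtrl libraries. All hairpin libraries of USP36 lay above the controls, those of sh43 highest. USP36 rose under sh43 (log2 change 0.83 ± 0.06 SE, edgeR adjusted p = 7.23e-12) and, less, under sh45 (log2 change 0.25 ± 0.06 SE, edgeR adjusted p = 0.00225), and it was lower under sh45 than under sh43 (log2 change -0.59 ± 0.06 SE, edgeR adjusted p = 5.72e-09). USP27X had 2.31, 3.19 and 2.38 CPM with sh43 and 8.37, 5.99 and 6.16 CPM with sh45, against 6.51, 6.38 and 8.03 CPM in the ZHX2 shCtrl libraries. USP27X was below all controls under sh43 and overlapped them under sh45. With sh43 it fell (log2 change -1.40 ± 0.20 SE, edgeR adjusted p = 1.11e-06), the largest change of any tested member there, and did not pass under sh45 (log2 change -0.03, edgeR adjusted p = 0.92). USP42 had 20.5, 20.1 and 20.9 CPM with sh43 and 33.3, 29.6 and 34.4 CPM with sh45, against 42, 34.5 and 33.4 CPM in the ZHX2 shCtrl libraries. USP42 likewise was below all controls under sh43 only, where it fell (log2 change -0.83 ± 0.09 SE, edgeR adjusted p = 1.07e-08). Under sh45 it did not pass (edgeR adjusted p = 0.111).

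Other members of that list passed under sh43 and not under sh45, except USP49, which passed under neither. USP7 rose (log2 change 0.37 ± 0.05 SE, edgeR adjusted p = 6.47e-07), and so did the H2A protease USP16 (log2 change 0.52 ± 0.08 SE, edgeR adjusted p = 2.29e-06). USP3 fell (log2 change -0.38 ± 0.06 SE, edgeR adjusted p = 3.49e-06), and USP21, another H2A protease, fell (log2 change -0.39 ± 0.11 SE, edgeR adjusted p = 0.00194). USP49 had a log2 change of -0.32 under sh43 (edgeR adjusted p = 0.0537).

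Of the members bound by UAF1, USP46 and USP1 changed under sh43 and in opposite directions. USP46 had 15.6, 14.1 and 13.7 CPM with sh43 and 31.8, 32.4 and 27.7 CPM with sh45, against 28.9, 27.1 and 29.3 CPM in the ZHX2 shCtrl libraries. The sh43 libraries of USP46 lay below all controls, and the sh45 libraries overlapped them. USP46 fell under sh43 (log2 change -0.97 ± 0.09 SE, edgeR adjusted p = 8.67e-10) and did not pass under sh45 (log2 change 0.10, edgeR adjusted p = 0.327). USP1 had 92.4, 102 and 105 CPM with sh43 and 69.4, 68.9 and 60.0 CPM with sh45, against 69.4, 56 and 67 CPM in the ZHX2 shCtrl libraries. USP1 was above all controls under sh43, where it rose (log2 change 0.64 ± 0.08 SE, edgeR adjusted p = 3.04e-08), and overlapped them under sh45 (edgeR adjusted p = 0.67). USP12 had 46.1, 48.1 and 47.9 CPM with sh43 and 48.3, 38.4 and 43.8 CPM with sh45, against 39.9, 43.2 and 45.8 CPM in the ZHX2 shCtrl libraries. USP12 was above all controls under sh43 but did not pass (log2 change 0.14, edgeR adjusted p = 0.114). Their cofactor WDR48 fell under both ZHX2 hairpins (log2 changes -0.58 and -0.49, edgeR adjusted p = 1.79e-07 and 4.04e-06).

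Among members of endosomes, the proteasome and stress granules, 4 of 5 tested fell under sh45, where 27.3% of all genes fell. This list is short and was chosen with earlier results of these data known. Over all members, 10 of 42 fell under sh45. USP8 had 71.8, 69.4 and 66.3 CPM with sh43 and 47.5, 46.3 and 47.7 CPM with sh45, against 76.6, 64.2 and 72.5 CPM in the ZHX2 shCtrl libraries. USP8 was below all controls under sh45 and overlapped them under sh43. It fell under sh45 (log2 change -0.59 ± 0.07 SE, edgeR adjusted p = 4.56e-08), the largest change of any member that passed there, and did not pass under sh43 (edgeR adjusted p = 0.61). USP32 had 46.5, 45.2 and 48 CPM with sh43 and 58.7, 54 and 52.4 CPM with sh45, against 77.7, 63.6 and 78.6 CPM in the ZHX2 shCtrl libraries. All hairpin libraries of USP32 lay below the controls, and it fell under sh43 (log2 change -0.66 ± 0.07 SE, edgeR adjusted p = 1.75e-08) and sh45 (log2 change -0.41 ± 0.07 SE, edgeR adjusted p = 3.61e-05). Its pseudogene copy USP32P2 averaged 8.23 ± 1.22 CPM under sh43 and 14.1 ± 1.90 CPM under sh45, against 9.64 ± 1.71 CPM in the ZHX2 shCtrl libraries (SD, n = 3 each). USP10 had 148, 142 and 149 CPM with sh43 and 129, 115 and 116 CPM with sh45, against 121, 107 and 109 CPM in the ZHX2 shCtrl libraries. USP10 was above all controls under sh43, where it rose (log2 change 0.38 ± 0.06 SE, edgeR adjusted p = 2.97e-06), and overlapped them under sh45 (edgeR adjusted p = 0.196). USP9X fell under sh45 (log2 change -0.30 ± 0.07 SE, edgeR adjusted p = 0.000583) and did not pass under sh43 (edgeR adjusted p = 0.143).

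Proteasome-bound USP14 and 2 members of splicing and DNA repair, USP39 and USP47, went up under sh43 and down under sh45. USP14 had 103, 102 and 106 CPM with sh43 and 76.9, 81.7 and 81.3 CPM with sh45, against 93, 90.0 and 98.6 CPM in the ZHX2 shCtrl libraries. The 3 groups did not overlap. USP14 rose under sh43 (log2 change 0.14 ± 0.06 SE, edgeR adjusted p = 0.0313), a call that ended without sh43 replicate 1 or 3 or shCtrl replicate 1 (edgeR adjusted p of 0.0552 to 0.0926) and also with upper-quartile factors (adjusted p = 0.137), and fell under sh45 (log2 change -0.23 ± 0.06 SE, edgeR adjusted p = 0.00167). USP39 had 72.9, 70.6 and 72.2 CPM with sh43 and 39.8, 44.5 and 41.4 CPM with sh45, against 46.5, 51.1 and 51.3 CPM in the ZHX2 shCtrl libraries. USP39 also formed 3 separate groups, with a rise under sh43 (log2 change 0.53 ± 0.07 SE, edgeR adjusted p = 5.64e-08) and a fall under sh45 (log2 change -0.25 ± 0.07 SE, edgeR adjusted p = 0.00316). USP47 had 88, 96.9 and 86.7 CPM with sh43 and 54.6, 55.9 and 52.1 CPM with sh45, against 74.1, 65.7 and 71.4 CPM in the ZHX2 shCtrl libraries. USP47 did the same, with a rise under sh43 (log2 change 0.36 ± 0.06 SE, edgeR adjusted p = 1.61e-05) and a fall under sh45 (log2 change -0.38 ± 0.07 SE, edgeR adjusted p = 2.77e-05). USP39, USP14 and USP47 were all lower under sh45 than under sh43 (log2 differences -0.78, -0.38 and -0.74, edgeR adjusted p = 7e-11, 3.15e-06 and 1.46e-10).

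USP43 and USP54 went the other way. USP43 had 13.8, 14.5 and 18 CPM with sh43 and 25.4, 23.1 and 25.7 CPM with sh45, against 18.1, 18.5 and 18.3 CPM in the ZHX2 shCtrl libraries. Its sh43 libraries lay below and its sh45 libraries above all controls. USP43 fell under sh43 (log2 change -0.25 ± 0.11 SE, edgeR adjusted p = 0.037), a call that ended without sh43 replicate 1 or 2, sh45 replicate 3 or shCtrl replicate 1, 2 or 3 (edgeR adjusted p of 0.0559 to 0.177) and also with no filter on low counts, with DESeq2 or with only the libraries compared (adjusted p of 0.0644 to 0.0826). It rose under sh45 (log2 change 0.44 ± 0.10 SE, edgeR adjusted p = 0.000628). USP54 had 31.2, 34 and 30.9 CPM with sh43 and 51.9, 50.1 and 50.5 CPM with sh45, against 47.3, 42.9 and 42.5 CPM in the ZHX2 shCtrl libraries. USP54 showed the same order of its 3 separate groups. It fell under sh43 (log2 change -0.46 ± 0.07 SE, edgeR adjusted p = 3.16e-06) and rose under sh45 (log2 change 0.20 ± 0.07 SE, edgeR adjusted p = 0.0165), where the call ended without sh45 replicate 1 or shCtrl replicate 3 (edgeR adjusted p of 0.0526 to 0.0685).

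The paralogs USP25 and USP28 both fell under both ZHX2 hairpins. USP25 had 43.4, 44.8 and 44.8 CPM with sh43 and 76.3, 68 and 66.7 CPM with sh45, against 88.6, 84.5 and 82.2 CPM in the ZHX2 shCtrl libraries. All hairpin libraries lay below the controls, those of sh43 lowest. USP25 fell under sh43 (log2 change -0.94 ± 0.07 SE, edgeR adjusted p = 1.22e-12) and under sh45 (log2 change -0.27 ± 0.06 SE, edgeR adjusted p = 0.000669). USP28 had 23.3, 22 and 22.4 CPM with sh43 and 23.1, 19.9 and 22.9 CPM with sh45, against 26.5, 30.1 and 33.8 CPM in the ZHX2 shCtrl libraries. USP28 was below all controls in every hairpin library, and fell under sh43 (log2 change -0.42 ± 0.09 SE, edgeR adjusted p = 0.000322) and under sh45 (log2 change -0.45 ± 0.09 SE, edgeR adjusted p = 0.000217). USP40 had 107, 102 and 104 CPM with sh43 and 60.9, 67.7 and 67.4 CPM with sh45, against 65.5, 53.6 and 54.8 CPM in the ZHX2 shCtrl libraries. USP40 was above all controls under sh43 and overlapped them under sh45. It rose under sh43 (log2 change 0.85 ± 0.07 SE, edgeR adjusted p = 3.55e-11) and under sh45 (log2 change 0.17 ± 0.07 SE, edgeR adjusted p = 0.0431). The sh45 call ended without sh43 replicate 1, 2 or 3, sh45 replicate 2 or 3 or shCtrl replicate 2 or 3 (edgeR adjusted p of 0.0504 to 0.17). It ended also with the replicate block (adjusted p = 0.0538) and with only the libraries compared (adjusted p = 0.0662). Without shCtrl replicate 1 the log2 change of USP40 under sh45 was 0.27. USP31 had 40.7, 41.8 and 36.6 CPM with sh43 and 38, 37 and 33.1 CPM with sh45, against 32.8, 22 and 33.3 CPM in the ZHX2 shCtrl libraries. USP31 was above all controls under sh43 and overlapped them under sh45, and shCtrl replicate 2 was the lowest of the 9 libraries. It rose under sh43 (log2 change 0.44 ± 0.11 SE, edgeR adjusted p = 0.000731) and under sh45 (log2 change 0.30 ± 0.11 SE, edgeR adjusted p = 0.023), where the call ended without sh45 replicate 1 or 2 or shCtrl replicate 2 (edgeR adjusted p of 0.0698 to 0.176). Without shCtrl replicate 2 its log2 change was 0.29 under sh43, still a call, and 0.14 under sh45.

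**Figure D4:**
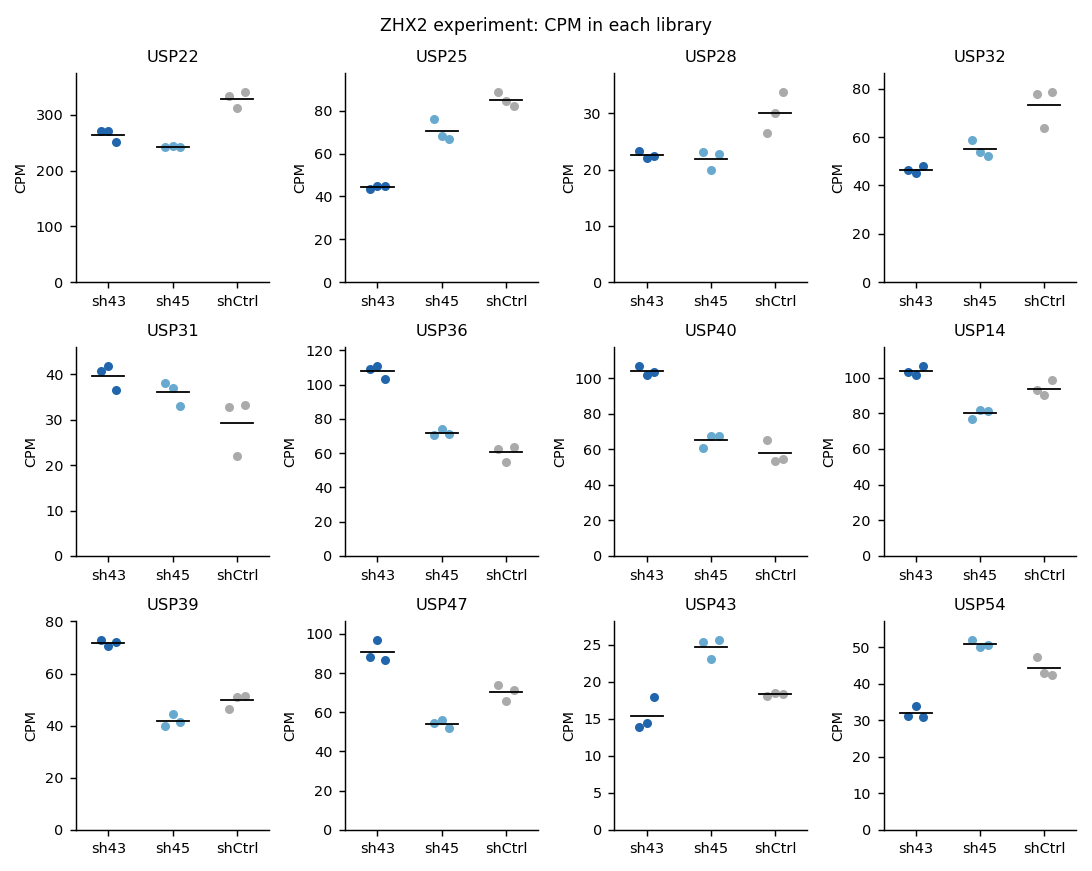
CPM (y axis, from 0) of the 12 members that passed under both ZHX2 hairpins, in each library, with the group mean as a bar. USP22, USP25, USP28 and USP32 are below the shCtrl libraries under both hairpins, and USP14, USP39 and USP47 lie on opposite sides of them.

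Of the 3 mitochondrial and endoplasmic reticulum members, 2 fell under sh43, where 35.2% of all genes fell. USP30 had 6.20, 4.92 and 5.56 CPM with sh43 and 13.3, 10.4 and 11.8 CPM with sh45, against 13.4, 14.1 and 14.8 CPM in the ZHX2 shCtrl libraries. All hairpin libraries of USP30 lay below the controls, with sh45 replicate 1 nearest to them. USP30 fell under sh43 (log2 change -1.35 ± 0.14 SE, edgeR adjusted p = 2.93e-09) and did not pass under sh45 (log2 change -0.25 ± 0.12 SE, edgeR adjusted p = 0.0992). USP19 had 59.3, 63.2 and 60.2 CPM with sh43 and 69.7, 68.7 and 62.1 CPM with sh45, against 71.7, 71.2 and 66.8 CPM in the ZHX2 shCtrl libraries. USP19 was below all controls under sh43, where it fell (log2 change -0.20 ± 0.06 SE, edgeR adjusted p = 0.00756), and did not pass under sh45 (edgeR adjusted p = 0.401). USP35 had 17.2, 17.1 and 16.1 CPM with sh43 and 22.6, 21.3 and 24 CPM with sh45, against 17.8, 18.7 and 19 CPM in the ZHX2 shCtrl libraries. USP35 was below all controls under sh43 without passing (log2 change -0.14, edgeR adjusted p = 0.199), and rose under sh45 (log2 change 0.29 ± 0.09 SE, edgeR adjusted p = 0.00972).

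The VHL partners changed under one ZHX2 hairpin each. USP20 had 31.6, 35.1 and 27.6 CPM with sh43 and 39.8, 38.5 and 39.9 CPM with sh45, against 39.7, 42.1 and 40.6 CPM in the ZHX2 shCtrl libraries. USP20 was below all controls under sh43, where it fell (log2 change -0.37 ± 0.08 SE, edgeR adjusted p = 0.000205), and did not pass under sh45 (edgeR adjusted p = 0.634). USP33 fell under sh45 (log2 change -0.28 ± 0.07 SE, edgeR adjusted p = 0.00203) and did not pass under sh43 (edgeR adjusted p = 0.618). USP18 had 5.98, 6.45 and 7.23 CPM with sh43 and 7.26, 7.65 and 9.43 CPM with sh45, against 7.35, 7.76 and 7.07 CPM in the ZHX2 shCtrl libraries. USP18 overlapped its controls under both hairpins and did not pass (log2 changes -0.18 and 0.14, edgeR adjusted p = 0.324 and 0.468). Of the 5 ISG15 conjugation genes, UBA7 and HERC5 fell under both ZHX2 hairpins, as did 15.9% of all genes. Their log2 changes were -1.01 and -0.17 for UBA7, and -0.47 and -0.41 for HERC5 (edgeR adjusted p at most 0.041). Over the 5 genes, 3 fell and 0 rose under sh43 (35.2% and 33.5% of all genes). Under sh45, 3 fell and 1 rose (27.3% and 25.3% of all genes).

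Of the DNA repair and cell cycle members, USP37 and USP45 fell under sh43 besides USP28. USP37 had 17.6, 15.8 and 17.5 CPM with sh43 and 21.7, 20.0 and 19.4 CPM with sh45, against 21.9, 20.1 and 24.6 CPM in the ZHX2 shCtrl libraries. USP37 was below all controls under sh43, where it fell (log2 change -0.39 ± 0.10 SE, edgeR adjusted p = 0.00117), and did not pass under sh45 (edgeR adjusted p = 0.299). USP45 had 10.8, 12 and 12 CPM with sh43 and 18.2, 24.7 and 22.6 CPM with sh45, against 19.1, 18.6 and 20.4 CPM in the ZHX2 shCtrl libraries. USP45 was below all controls under sh43, where it fell (log2 change -0.74 ± 0.12 SE, edgeR adjusted p = 3.01e-06), and did not pass under sh45 (log2 change 0.17, edgeR adjusted p = 0.197). USP24 and USP48 did not pass under either hairpin. In the USP4 subfamily, USP15 rose (log2 change 0.54 ± 0.10 SE, edgeR adjusted p = 1.89e-05) and USP11 fell (log2 change -0.37 ± 0.07 SE, edgeR adjusted p = 5.14e-05) under sh43, and USP4 did not pass (edgeR adjusted p = 0.929). USP53 rose under sh45 (log2 change 0.38 ± 0.12 SE, edgeR adjusted p = 0.00871) and did not pass under sh43.

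The ZHX2 hairpins differed from each other in 32 of 42 members (76.2%), against 66.8% of all genes tested, with 17 higher and 15 lower under sh45 beside 34.2% and 32.7% of all genes. Over the 4 hairpin contrasts, 8 of the 42 members tested in both experiments passed in none (19%), 16 in 1 (38.1%), 10 in 2 (23.8%) and 8 in 3 (19%), and none in 4. Of the 13182 genes tested in both experiments, 15.2% passed in none, 34.7% in 1, 33% in 2, 12.8% in 3 and 4.28% in 4. The members that passed in 3 were USP10, USP14, USP22, USP25, USP32, USP36, USP40 and USP46. Those counts hold both hairpins of an experiment, which share their controls.

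The response to USP13 knockdown, as the mean of sh50 and sh52 against their shCtrl, was set against the ZHX2 response, taken the same way with sh43 and sh45, and their difference was tested with all 18 libraries in 1 model. The responses differed in 16 of 43 members (37.2%), against 43.4% of all genes tested. The USP13 response was the higher one in 10 members and the lower one in 6 (22.7% and 20.7% of all genes), and with DESeq2 the split was 10 and 11. The largest difference was in USP30 (0.69 on the log2 scale, edgeR adjusted p = 0.000481), whose mean log2 change was -0.09 under the USP13 hairpins and -0.80 under the ZHX2 hairpins. For USP42 the difference was 0.51 (edgeR adjusted p = 0.000348), and for USP18, which was lower under the USP13 hairpins, it was -0.50 (edgeR adjusted p = 0.0121). In USP46 the responses were not shown to differ (-0.07, edgeR adjusted p = 0.632). Nor were they in USP10 (-0.05, edgeR adjusted p = 0.657). In the ZHX2 experiment, however, USP46 and USP10 passed under sh43 and not under sh45. Their changes differed between sh45 and sh43 (edgeR adjusted p = 1.2e-10 for USP46 and 0.000132 for USP10), so the ZHX2 mean does not stand for each hairpin. Means over sh43 and sh45 hide opposite changes in the 5 members named above, and USP14, USP39, USP43, USP47 and USP54 did not pass here.

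**Figure D5:**
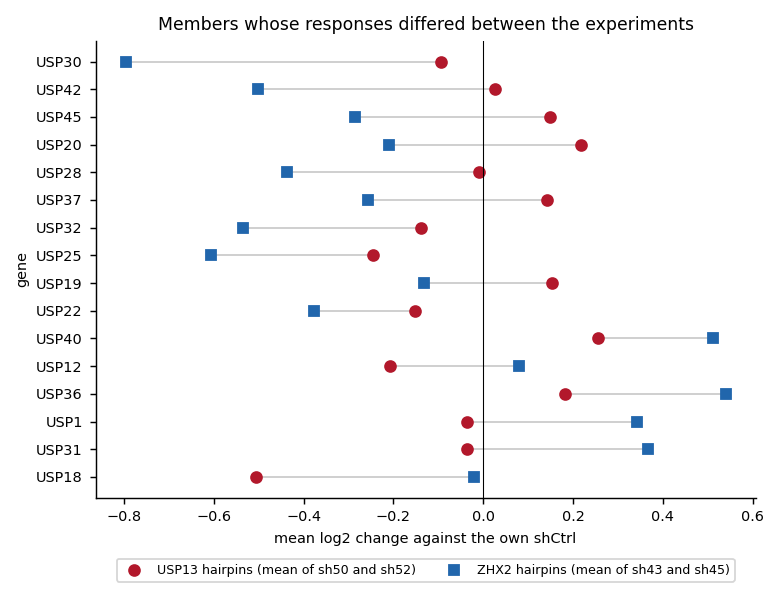
Mean log2 change under the USP13 hairpins (circles) and under the ZHX2 hairpins (squares), each against its own shCtrl (x axis), for the 16 members whose responses differed (y axis). USP30 is at -0.09 under the USP13 hairpins and -0.80 under the ZHX2 hairpins, and USP18 is lower under the USP13 hairpins.

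Other genes of the ubiquitin system, from lists of USP cofactors, other deubiquitinase classes, ubiquitin and E1 genes and ISG15 conjugation, passed under both USP13 hairpins in the same direction in 5 of 54 cases tested (9.26%), near the 7.42% of all genes. These were ATXN7L3, the adaptor that activates USP22 in SAGA, which fell (log2 changes -0.28 and -0.33), the ubiquitin hydrolase UCHL1, which fell (-0.21 and -0.20), MINDY2, which fell (-0.33 and -0.39), the ligase TRIM25, which fell (-0.16 and -0.18), and ALG13, a glycosyltransferase subunit with an OTU domain, which rose (0.36 and 0.33). The count was 3 without sh52 replicate 1 or shCtrl replicate 1. ATXN7L3 had 60.3, 59.3 and 58.8 CPM with sh50 and 54.7, 61.5 and 56 CPM with sh52, against 67.5, 72.7 and 75.9 CPM in the USP13 shCtrl libraries. All of its hairpin libraries lay below the controls, as did those of its partner USP22.

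Under both ZHX2 hairpins, 16 of the 54 tested genes of these lists passed in the same direction (29.6%), near the 30% of all genes. OTUB2 had 51.5, 51.6 and 63.2 CPM with sh43 and 19, 18.4 and 16 CPM with sh45, against 7.73, 5.29 and 8.37 CPM in the ZHX2 shCtrl libraries. It was above all controls under both hairpins, with log2 changes of 2.95 and 1.31 (edgeR adjusted p = 2.1e-17 and 7.32e-09). Each was larger in size than the change of any tested member under the same hairpin. TNFAIP3 (A20), an OTU enzyme that restrains NF-kB signalling, rose by 1.26 and 0.95, the proteasome lid protease PSMD14 by 0.94 and 0.23, and UBA6, an E1 enzyme, by 0.93 and 0.20 on the log2 scale. OTUD3, STAMBPL1, ATXN7L3 and the ubiquitin fusion gene RPS27A were among the others that rose. WDR48, G3BP2, VCPIP1, MPND, MINDY3, UBA7 and HERC5 fell. G3BP1, the stress granule partner of USP10, passed in opposite directions, with log2 changes of 0.38 under sh43 and -0.19 under sh45.

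Isoforms could not be followed with weight. Of the members, 19 have 1 transcript in the files, and 26 members above 1 TPM have more than 1. In 22 of these 26, every transcript took, as a mean over groups, a share of the gene's TPM within 1.5 times of an even split. Reads common to all transcripts of a gene are divided between them by the authors' quantification, so member values are given per gene.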

How the data were processed

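The 18 libraries of 786-O RNA (6 groups of 3) were made with a kit that does not mark the strand. Each file holds a Salmon quantification by RefSeq transcript, with lengths, TPM and estimated counts, per the file headers. Tools named in the submitters' processing notes, without roles, are Salmon 0.11.3, STAR 2.5.2b, cutadapt 1.12 and DESeq2 1.14.1, with build hg19. The deposited estimated counts were whole within 1e-06 and not scaled for depth (11192561 to 16511290 per library). The deposited TPM, which the authors' quantification corrects for length and brings to one common sum, served for levels between genes and for marker sums only, summed over transcripts.

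Rounded counts were summed from transcripts to genes: of 60422 transcripts a file (1342 further copies), 59301 were named from RefSeq and 684 from GENCODE 29, and 437 unnamed ones (0.0854% to 0.12% of counts) were left out. Genes passing filterByExpr were tested (13715 for USP13, 13604 for ZHX2, 14207 over all libraries) with edgeR 4.0.16 in R 4.3.3: TMM factors, quasi-likelihood F-test, 1 mean per group, Benjamini-Hochberg adjustment over all genes tested, threshold 0.05. SEs are the absolute log2 change over the root of F. The code was tested on simulated data. Replicate pairs were compared by a chi-square over genes (2.333 to 6.68 per degree of freedom in 18 pairs), and all libraries were kept.

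Alternatives were DESeq2 1.42.0, upper-quartile factors, no filter on low counts, a replicate block, effective-length offsets, only the libraries compared, and each library left out. Values by library are given for members that passed under both hairpins of an experiment or in 3 hairpin contrasts, for the 3 that passed with the largest change in each hairpin contrast, and for those that passed in the comparison of responses, and levels for the 5 of highest TPM. The members and lists were chosen with earlier results of these data known. Hairpin targets come from the labels and transcript sequences from GENCODE 29 (GRCh38).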

Additional observations from a re-analysis of the deposited data

Results flagged for a closer look

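The response to USP13 knockdown differed from that to ZHX2 knockdown, by a test of the difference itself (edgeR's quasi-likelihood F-test, 18 libraries), in 16 members. The values that follow are the USP13 response minus the ZHX2 response on the log2 scale. The USP13 response was the higher one for the mitochondrial USP30 (0.69), USP42 (0.51), USP45 (0.42), USP20 (0.41), USP28 (0.41), USP32 (0.38), USP37 (0.38), USP25 (0.35), USP19 (0.27) and USP22 (0.21). Among these, the means under both knockdowns were below 0 for USP22, USP25, USP28, USP30 and USP32. Their means under the USP13 hairpins were -0.15, -0.25, -0.009, -0.09 and -0.14 in that order, and USP28 and USP30 passed under neither USP13 hairpin. The USP13 response was the lower one for USP18 (-0.50), USP31 (-0.42), USP1 (-0.39), USP36 (-0.37), USP12 (-0.30) and USP40 (-0.27), of which USP36 and USP40 had means above 0 under both knockdowns.

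Not all of these calls stood without each library. That of USP12 ended without USP13 sh50 replicate 1, USP13 shCtrl replicate 1 or 2, ZHX2 sh45 replicate 1 or ZHX2 shCtrl replicate 1 (edgeR adjusted p of 0.0541 to 0.0973). That of USP31 ended without USP13 shCtrl replicate 2 or ZHX2 shCtrl replicate 2 (edgeR adjusted p of 0.0512 to 0.0855), with a difference of -0.25 in the absence of that ZHX2 library, that of USP37 without ZHX2 shCtrl replicate 3 (edgeR adjusted p = 0.0567) and that of USP40 without USP13 shCtrl replicate 3 or ZHX2 shCtrl replicate 2 or 3 (edgeR adjusted p of 0.0626 to 0.0829). The 2 hairpins of ZHX2 differed from each other in most members, and a response here is the mean of its 2 hairpins. USP1, USP19, USP20, USP30, USP37, USP42 and USP45 passed under sh43 and not under sh45, and USP12 and USP18 passed under neither.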

How the results depend on the processing

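No member's direction turned under any setting in which it passed. Main counts of members were 9 under sh50, 6 under sh52, 3 between these hairpins and 2 under both. The replicate block gave 5, 5, 2 and 1. Leaving out 1 library at a time gave ranges of 4 to 11, 2 to 6, 1 to 2 and 1 to 4 for the same counts, and 3 to 6 around 5 for other ubiquitin genes under both USP13 hairpins. Counts under ZHX2 hairpins moved less: 26 to 30 around 28 (sh43), 15 to 17 around 17 (sh45), 28 to 34 around 32 between them, 5 to 7 around 7 under both, and 14 to 19 around 16 for the difference of responses. The replicate block gave 28, 16, 32, 6 and 16 for these. The shared replicate numbers gave no sign of pairing. Deviations of same-numbered libraries correlated at -0.103 to 0.055 in the USP13 experiment and at -0.0641 to 0.0384 in the ZHX2 experiment. When a library was compared with those of another group, its own number correlated best in 2 of 9 and 1 of 9 comparisons. Calls kept without any single library were 4 of 9 under sh50, 2 of 6 under sh52, 26 of 28 under sh43 and 14 of 17 under sh45. The cause of the lost calls was not tested. At this depth, 5 members had too few counts to be tested in either experiment.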

Other observations

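Some values lie outside the comparisons above. The 48 members together took 0.237 ± 0.00616% of estimated counts under sh43 and 0.215 ± 0.00541% under sh45, against 0.242 ± 0.0138% in the ZHX2 shCtrl libraries (SD, n = 3 each). They took 0.244 ± 0.00854% under sh50 and 0.249 ± 0.00616% under sh52, against 0.248 ± 0.00679% in the USP13 shCtrl libraries.

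USP46-DT, a noncoding transcript divergent from USP46, averaged 2.62 ± 0.224 CPM under sh50 and 1.97 ± 0.367 CPM under sh52, against 2.27 ± 0.940 CPM in the USP13 shCtrl libraries (SD, n = 3 each). USP30-AS1, an antisense transcript at USP30, averaged 0.0983 ± 0.0527 CPM under sh43 and 0.184 ± 0.0692 CPM under sh45, against 0.121 ± 0.0427 CPM in the ZHX2 shCtrl libraries. As the libraries do not mark the strand, reads of a member and of a transcript overlapping it on the other strand cannot be told apart.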
